A study of Homo sapiens with 6 samples.

Results

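PPP1R3C and 8 other genes of glycogen metabolism were examined in human EndoC-βH1 cells, a β cell line, among 60671 gene identifiers counted in each sample. The 9 genes were PPP1R3B, PPP1R3C, PPP1R3D and PPP1R3E, which encode glycogen-targeting subunits of protein phosphatase PP1, and GYG1, GYS1, GBE1, PYGB and PYGL, which encode glycogen enzymes. They were listed by symbol and matched to Ensembl identifiers in the count files. They were chosen by their role around PPP1R3C, a gene selected on its normalized counts in the 3 DMSO against the 3 AZD7762 samples. The differences between the groups are therefore given for the 9 genes as a description, and the 1 count of calls among them is printed beside the share of all genes called and supports nothing.

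Bulk RNA-seq was performed on wild-type EndoC-βH1 cells treated with the vehicle DMSO or with AZD7762 at 1 µM, which inhibits the checkpoint kinases CHEK1 and CHEK2, with 3 samples in each group. Kinase profiling in the paper at this dose also found inhibition of most other kinases reported as its targets. A starvation of 1 h in 0.5 mM glucose preceded a stimulation of 1 h, in which the glucose was 0.5 or 20 mM, and DMSO or AZD7762 was present in both steps. Which glucose a library received in the stimulation is not stated. The study describes its in vitro replicates as independent in general, and the labels do not tie these libraries to separate cultures, so that p-values measure the spread between these samples, which may in part be technical. EndoC-βH1 is a single immortalized line, and no other cell type of the islet was cultured with it.

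Glycogen is the branched glucose polymer in which cells store carbohydrate. Glycogenin primes each particle, glycogen synthase extends its chains, the branching enzyme adds branch points, and glycogen phosphorylase releases glucose units from the chain ends. PP1 activates the synthase and inactivates the phosphorylase by removing phosphate, and it is brought to the particle by targeting subunits of the PPP1R3 family, which bind PP1, glycogen and glycogen enzymes. The best known sites of this metabolism are liver and muscle, and β cells store glycogen when glucose is high. AZD7762 was tested in this study for its effect on insulin secretion, and the RNA-seq asked how far it changes the transcriptome during that assay.

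The promoter letters of the genes are shown first, as a description. RefSeq promoters on GRCh38.p14 were found for 7 of the 9 genes, namely PPP1R3C, PPP1R3D, GYS1, GBE1, PYGB, PYGL and GYG1. In the 250 bases before the start site, the letters ACGTG, the core of sites bound by hypoxia-inducible and related basic helix-loop-helix factors, were searched on both strands. They were held by 4 of the 7 windows and by 18.5% of the 35116 promoter windows of this length in the table. The palindrome CACGTG, an E-box that contains ACGTG on each strand, was held by 3 of the 7 windows and by 6.34% of all windows. The letters TGACG, found in cAMP response elements, were held by the windows of PPP1R3D and GYG1 and by 21.2% of all windows. The 4 windows with ACGTG are given from 5′ to 3′ on the strand of the gene, with each match on either strand in capitals. They lie at chr10:91633072-91633321 (minus strand), chr20:59940306-59940555 (minus strand), chr3:81761646-81761895 (minus strand) and chr3:148991290-148991539 (plus strand).
PPP1R3C: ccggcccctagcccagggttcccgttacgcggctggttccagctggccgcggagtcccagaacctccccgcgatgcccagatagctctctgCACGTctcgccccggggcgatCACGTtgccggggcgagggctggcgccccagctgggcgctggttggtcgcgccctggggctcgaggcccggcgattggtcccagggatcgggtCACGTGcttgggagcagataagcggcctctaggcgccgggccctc
PPP1R3D: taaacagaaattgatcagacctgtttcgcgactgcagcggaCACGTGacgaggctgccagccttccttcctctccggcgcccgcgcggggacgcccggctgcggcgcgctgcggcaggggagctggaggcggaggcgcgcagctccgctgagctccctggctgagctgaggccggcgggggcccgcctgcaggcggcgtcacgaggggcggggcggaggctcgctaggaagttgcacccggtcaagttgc
GBE1: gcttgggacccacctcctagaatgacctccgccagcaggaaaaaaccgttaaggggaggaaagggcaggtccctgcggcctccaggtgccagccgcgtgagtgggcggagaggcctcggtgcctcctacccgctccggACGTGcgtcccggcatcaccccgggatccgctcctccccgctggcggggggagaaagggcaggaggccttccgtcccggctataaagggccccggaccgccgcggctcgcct
GYG1: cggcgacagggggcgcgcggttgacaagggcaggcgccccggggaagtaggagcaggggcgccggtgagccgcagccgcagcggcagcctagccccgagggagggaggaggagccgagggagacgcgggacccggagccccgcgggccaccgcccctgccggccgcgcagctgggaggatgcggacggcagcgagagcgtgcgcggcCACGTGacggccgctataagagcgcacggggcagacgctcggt
The window of PPP1R3C held 3 separate stretches, of which the one nearest to the start site, 40 bases before it, was CACGTG. The windows of PPP1R3D, GBE1 and GYG1 held 1 stretch each. The share of all windows with more than 1 stretch was not counted, so the number in PPP1R3C has no background beside it. Such matches describe the letters only, and whether they bear on the differences between the groups was not tested.

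Across the 6 libraries, between 20486391 and 29402440 counts fell on genes, and a count of 3 corresponded to between 0.102 and 0.144 CPM (counts per 1000000 counts of the library, scaled with TMM factors between 0.983 and 1.02). This floor covers counting error only. Libraries of the same group were distinct, since the chi-square of their counts was between 4.85 and 9.59 per gene. All 10 β cell markers listed, INS and PDX1 among them, were expressed at 1 CPM or more, with a summed level between 5722 and 6809 CPM with DMSO and between 6383 and 6978 CPM with AZD7762. One of them, MAFA, was called higher with AZD7762 (log2 fold change 1.24, adjusted p = 0.000133 in edgeR's test), and its part in the results was not tested. Much of the summed level was CHGA, with means of 3601 CPM with DMSO and 3890 CPM with AZD7762. Of the exon length of INS, 37.5% overlaps another gene on the same strand, so its counts are uncertain. Markers of liver and muscle, where glycogen stores are large, summed to at most 1.10 CPM in any sample. Of 5 markers of other islet cells, 3 reached 1 CPM (SST, HHEX and GCG), with sums over the 5 between 220.5 and 251 CPM with DMSO and between 260.1 and 285 CPM with AZD7762. Markers of exocrine and duct cells summed to between 46.7 and 57.4 CPM, and those of mesenchyme to between 11.2 and 17.0 CPM.

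In DMSO-treated cells, PPP1R3C and PYGB had the highest levels per length of the 9 genes. Levels of different genes were compared only as normalized CPM per kilobase of exon. PPP1R3C stood at 26.1, 25.9 and 22.1 in replicates 1, 2 and 3, with a mean of 24.7 ± 2.26 (SD, n = 3), which was above 88.9% of the genes tested. PYGB, the brain form of glycogen phosphorylase, stood at 22.6, 20.4 and 22.2, with a mean of 21.7 ± 1.22 per kb. The values of these genes overlapped, so their order was not resolved.

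Below them the order was GBE1, PPP1R3E, GYS1, PPP1R3D, PPP1R3B, GYG1 and PYGL, and no neighbours in this stretch overlapped in the 3 DMSO samples. GBE1, the branching enzyme, had 9.48 ± 0.122 CPM per kb, and PPP1R3E had 8.87 ± 0.372, a step of only 1.07 times, or 15.0 against 10.3 with the length of the longest transcript. GYS1, the glycogen synthase found outside liver, had 7.01 ± 0.0745. PPP1R3D and PPP1R3B followed with 5.78 ± 0.398 and 4.95 ± 0.0758, and GYG1, a glycogenin, with 2.99 ± 0.407. PYGL, the liver form of phosphorylase, was the lowest with 0.292 ± 0.0549, which was 10.2 times below GYG1. The 9 genes kept these places with the length of the longest transcript in place of all exons and without any 1 DMSO sample.

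PYGB thus exceeded PYGL in every sample. The ratio of their levels per length was 98.1, 66.2 and 65.8 in the DMSO samples and 111, 67.5 and 66.6 in the AZD7762 samples. The high ratios in replicate 1 of both groups rest on 31 and 25 counts of PYGL, a gene that had between 25 and 38 counts in the 6 libraries. PYGM, the muscle form of phosphorylase, had between 1 and 4 counts in a library and was not tested.

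The other isoforms of the pathway were also unequal, though less so for the glycogenins. GYG2, the other glycogenin, had 35.7 ± 2.68 CPM per kb in the DMSO samples, and its ratio to GYG1 was 12.03 ± 1.10 (SD, n = 3), or 10.1 with the longest transcripts. For GYG1, 21.8% of the exon length overlaps HLTF on the opposite strand, and its counts are uncertain because the sources do not say whether strand was used. GYS2, the liver form of the synthase, had no count in any library, but another gene covers 85.3% of its exons on the same strand and 11.7% are covered on the opposite strand, so reads could be left out as ambiguous and the 0 sets no limit on its level. In the PPP1R3 family, PPP1R3F had 1.31 ± 0.122 CPM per kb, below the 4 subunits described, and PPP1R3A and PPP1R3G had at most 1 and 3 counts in a library. Genes on the opposite strand overlap 22.3% of the exon length of PPP1R3F, so its counts are uncertain if strand was not used.

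**Figure D1:**
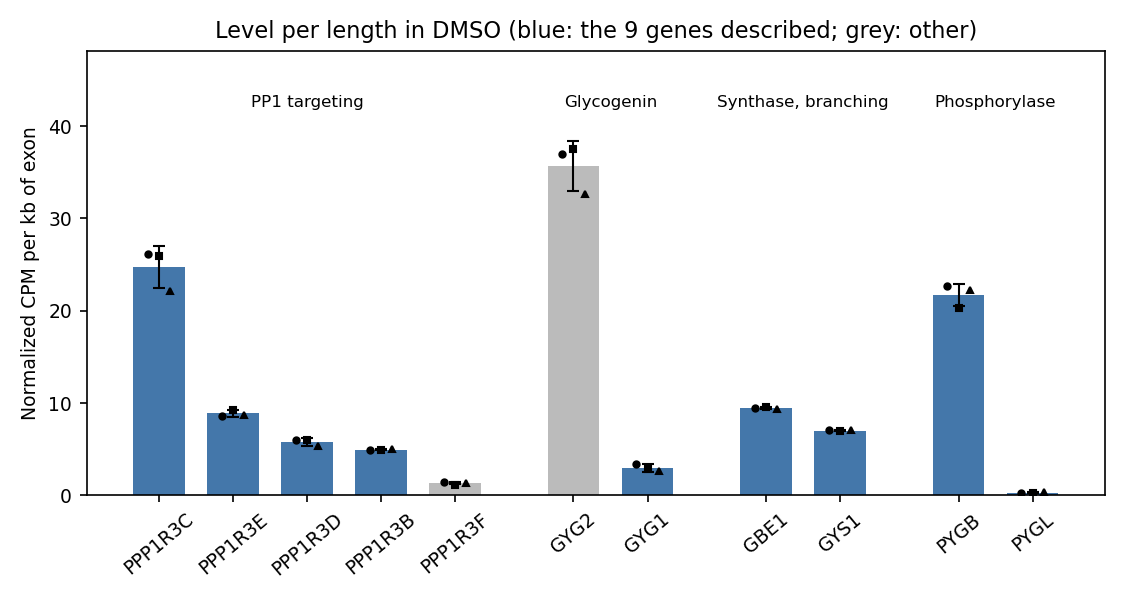
Level per length (normalized CPM per kilobase of exon) in the 3 DMSO samples, for the 9 genes described (blue) and 2 related genes (grey), ordered by role. Bars are means, error bars SD and points the samples (circle, square and triangle for replicates 1, 2 and 3). PPP1R3C stands at 24.7 and PYGB at 21.7, and GYG2 at 35.7 stands above GYG1 at 2.99.

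PPP1R3C, also known as protein targeting to glycogen (PTG), was lower with AZD7762 in every sample. PPP1R3C (ENSG00000119938) lies on the minus strand of chromosome 10 of GRCh37 from 93388199 to 93392828, and its single annotated transcript has 2 exons with 2541 bases in all and overlaps no other gene. The share of counts on mitochondrial genes was also separated by treatment, at 1.57, 2.13 and 2.12% in the DMSO libraries and 2.26, 2.28 and 2.63% in the AZD7762 libraries, and its part in the results was not tested. The normalized CPM of PPP1R3C was 66.4, 65.9 and 56.2 in DMSO replicates 1, 2 and 3 and 27.3, 25.5 and 21.3 in AZD7762 replicates 1, 2 and 3. The groups were far apart, with the lowest DMSO sample 2.06 times the highest AZD7762 sample. The group means were 62.8 ± 5.73 and 24.7 ± 3.09 CPM (SD, n = 3 in each group), and the log2 fold change was -1.35 (standard error 0.0960), which leaves 0.393 of the DMSO level. These values rest on 454 to 1961 counts in a library. A difference of at least this size in either direction was seen for 36 of 17649 genes (0.204%), and a lower log2 fold change for 7. The log2 fold change lay between -1.44 and -1.25 when each sample was left out in turn.

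**Figure D2:**
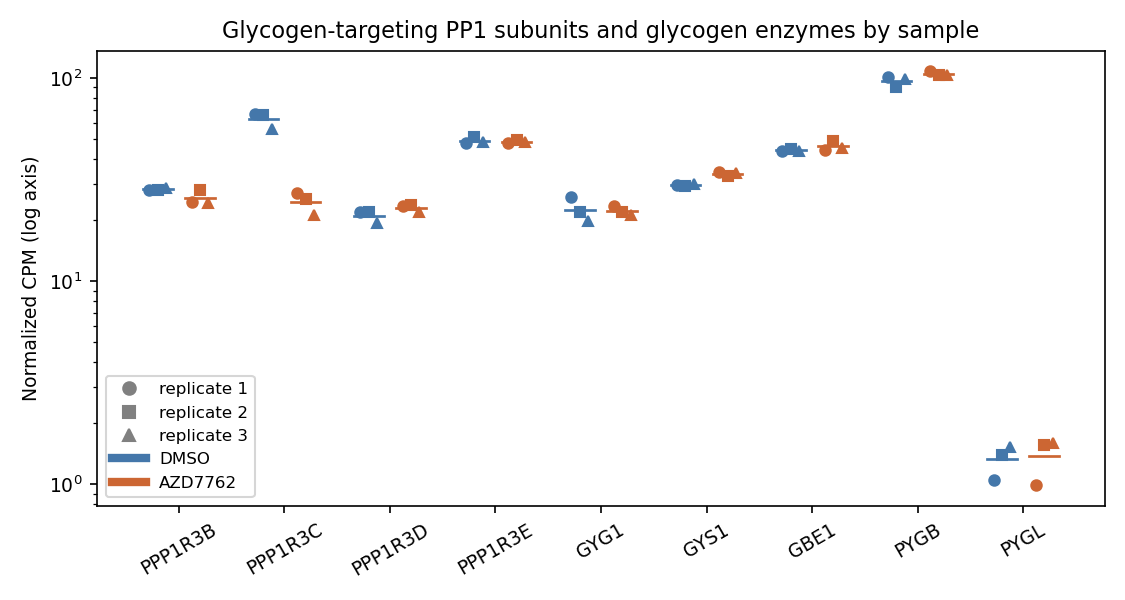
Normalized CPM (log axis) of the 9 genes in each sample, DMSO in blue and AZD7762 in orange, with the replicate shown by the symbol and the group mean by a line. PPP1R3C lies between 56.2 and 66.4 with DMSO and between 21.3 and 27.3 with AZD7762, and the other 8 genes keep nearly the same level in both groups.

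None of the other 3 targeting subunits differed as much. PPP1R3B (ENSG00000173281, chromosome 8, 8993765 to 9009084), known as the liver subunit G(L), had 28.00, 28.28 and 28.85 CPM with DMSO and 24.61, 27.99 and 24.20 with AZD7762. AZD7762 replicate 2 lay just under the lowest DMSO sample, and the log2 fold change was -0.15 (standard error 0.0769). PPP1R3D (ENSG00000132825, chromosome 20, 58511718 to 58515360), a subunit expressed in many tissues, had 21.9, 21.9 and 19.4 CPM with DMSO and 23.5, 23.7 and 22.0 with AZD7762. Its AZD7762 samples lay above its DMSO samples by a margin of only 0.139 CPM, and the log2 fold change was 0.13 (standard error 0.0798). PPP1R3E (ENSG00000235194, chromosome 14, 23764861 to 23772068) had 47.8, 51.6 and 48.4 CPM with DMSO and 48.1, 49.8 and 48.4 with AZD7762. These values overlapped, and the log2 fold change was -0.02 (standard error 0.0619), which turned positive (0.013) without DMSO replicate 2. Of the exon length of PPP1R3E, 8.32% overlaps genes on the opposite strand and 2.54% a gene on the same strand.

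The make-up of the 4 subunits differed accordingly. Their summed level per length was 45.6, 46.2 and 41.2 CPM per kb in the DMSO samples and 30.2, 30.4 and 27.4 in the AZD7762 samples. The mean sum was 15.0 CPM per kb lower with AZD7762, and the mean level of PPP1R3C was also 15.0 lower. Among the other subunits, PPP1R3B went from 4.95 to 4.46 and PPP1R3E from 8.87 to 8.78, and PPP1R3D went the other way, from 5.78 to 6.33. PPP1R3C held 57.3%, 56.2% and 53.7% of the sum with DMSO and 35.7%, 33.0% and 30.6% with AZD7762. PPP1R3E went from 20.1% ± 1.15 to 30.04% ± 1.61 of the sum (SD, n = 3 in each group) while its own level barely differed. The ratio of PPP1R3C to GYS1, the synthase it brings PP1 to, was 3.53 ± 0.347 with DMSO and 1.22 ± 0.157 with AZD7762. Shares and ratios use the same contrast that chose PPP1R3C, around which the list was drawn up, and are descriptions too.

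**Figure D3:**
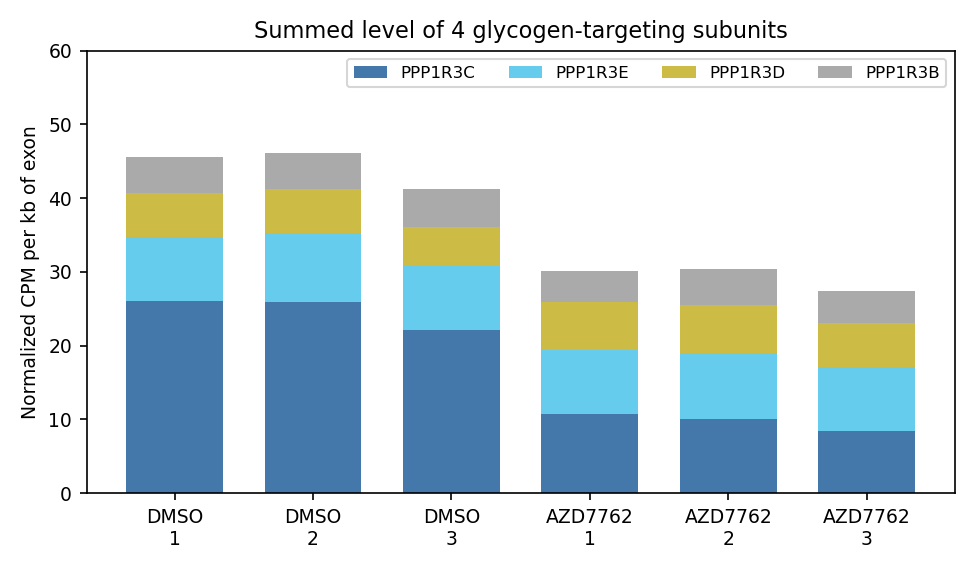
Summed level (normalized CPM per kilobase of exon) of PPP1R3C, PPP1R3E, PPP1R3D and PPP1R3B in each of the 6 samples, stacked by gene. The sum is between 41.2 and 46.2 with DMSO and between 27.4 and 30.4 with AZD7762, and the PPP1R3C layer differs most, from a mean of 24.7 to 9.72.

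Among the enzymes of synthesis, GYS1 was slightly higher with AZD7762. GYS1 (ENSG00000104812, chromosome 19, 49471387 to 49496567) had 29.8, 29.4 and 30 CPM with DMSO and 34.4, 32.9 and 34.2 with AZD7762, and the groups lay 2.88 CPM apart. Its log2 fold change was 0.19 (standard error 0.0653), higher than that of 90.1% of genes tested, and 0.15 when libraries were scaled by their totals alone. GBE1 (ENSG00000114480, chromosome 3, 81538854 to 81810796) had 44.01, 44.69 and 43.57 CPM with DMSO and 44.4, 49.0 and 45.1 with AZD7762. AZD7762 replicate 1 lay within the DMSO range, and the log2 fold change was 0.07 (standard error 0.0644). GYG1 (ENSG00000163754, chromosome 3, 148709195 to 148749562) had 25.9, 22.0 and 19.8 CPM with DMSO and 23.5, 21.9 and 21.2 with AZD7762. The AZD7762 samples fell inside the DMSO range, and the log2 fold change of -0.03 (standard error 0.0986) turned positive without DMSO replicate 1 (0.082) or AZD7762 replicate 3 (0.0071).

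The phosphorylases differed as little. PYGB (ENSG00000100994, chromosome 20, 25228721 to 25278648) had 101, 90.7 and 99.0 CPM with DMSO and 108, 104 and 104 with AZD7762. Its groups did not overlap, with a log2 fold change of 0.12 (standard error 0.0608), which was 0.068 without DMSO replicate 2, the lowest sample. PYGL (ENSG00000100504, chromosome 14, 51324609 to 51411201) had 1.05, 1.40 and 1.53 CPM with DMSO and 0.994, 1.57 and 1.60 with AZD7762. Replicate 1 was the lowest in both groups, and the log2 fold change of 0.06 had a standard error of 0.245, so that a change of moderate size was not detectable at this depth. It turned negative when DMSO replicate 1 was left out (-0.095), and likewise for AZD7762 replicate 2 (-0.043) and replicate 3 (-0.051).

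The spread between the DMSO samples differed widely among the 9 genes. The coefficient of variation was 1.06% for GYS1, 1.28% for GBE1 and 1.53% for PPP1R3B, each below the 3.61%, 2.96% and 3.69% that counting error alone gives for their mean counts. It was 9.12% for PPP1R3C and 13.6% for GYG1, above their counting errors of 2.47% and 4.11%. For PYGL it was 18.8%, close to a counting error of 17.2%. PPP1R3C was lowest in replicate 3 of both groups, and GYG1 was highest in replicate 1 of both.

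All 9 genes passed edgeR's filter on low counts, which kept 17649 genes. With edgeR's quasi-likelihood test over these genes and a threshold of 0.05 on the adjusted p, 1 of the 9 genes was called, PPP1R3C, against 0.708% of all genes tested. These were 125 genes, 63 higher with AZD7762 (0.357%) and 62 lower (0.351%). With libraries scaled by their totals alone, 149 genes were called, 59 higher and 90 lower. The groups did not overlap for 5 of the 9 genes, 3 of them higher (PPP1R3D, GYS1 and PYGB) and 2 lower (PPP1R3C and PPP1R3B), against 15.0% of all genes tested, 6.79% higher and 8.25% lower. Nothing is read from either count, because the same contrast chose PPP1R3C, around which the list was drawn up. The median log2 fold change was 0.06 over the 9 genes and 0.07 over the 8 without PPP1R3C, beside 0.0076 over all genes tested. The 8 log2 fold changes ranged from -0.15 to 0.19, and 79.3% of all genes tested had a size of at most 0.2.

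No call was made in the rest of the glycogen pathway. Of 28 further genes, which include phosphorylase kinase, the PP1 catalytic subunits, GSK3, laforin and malin, 23 were tested. None of them was called by edgeR's quasi-likelihood test or by DESeq2, beside 0.708% of all genes tested that edgeR called. At that share a list of this length would most often hold no call, so nothing is read from the absence of calls. The smallest adjusted p was 0.340 in edgeR, and 2 (8.70%) had an unadjusted p under 0.05, both higher, beside 9.68% of all genes tested. Their median log2 fold change was -0.0099, with 9 of 23 above 0 and 14 below. The largest log2 fold changes in this list were -0.29 for NHLRC1 (standard error 0.159), which encodes the ubiquitin ligase malin, 0.19 for G6PC3 (standard error 0.0642), a glucose-6-phosphatase, and 0.14 for PPP1CA (standard error 0.0630), a catalytic subunit of PP1. Their adjusted p were 0.597, 0.340 and 0.483 in edgeR's test. Genes on the opposite strand overlap 23.9% of the exon length of G6PC3 and 18% of that of PPP1CA. The counts of both are uncertain if strand was not used. The catalytic subunits PPP1CB and PPP1CC, to which PPP1R3C also binds, had 459 ± 25.8 and 241 ± 16.6 CPM with DMSO and 459 ± 29.8 and 239 ± 12.8 CPM with AZD7762 (SD, n = 3 in each group).

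Other regulatory subunits of PP1, which direct it to other places or inhibit it, were compared in the same way. Of 31 listed, 28 were tested and none was called by edgeR or DESeq2, with a smallest adjusted p of 0.364 in edgeR. With 0.708% of all genes tested called by edgeR, nothing is read from the absence of calls in a list of this length. An unadjusted p under 0.05 was seen for 4 (14.3%, beside 9.68% of all genes tested), of which 3 were higher and 1 lower. The median log2 fold change was 0.03, and the values ranged from -0.18 to 0.24. The largest were 0.24 for PPP1R9B (spinophilin, adjusted p = 0.370 in edgeR), 0.22 for PPP1R16A (adjusted p = 0.719) and 0.22 for PPP1R13L (adjusted p = 0.715), none of them past the threshold. Without DMSO replicate 3, PPP1R16A was called. Of its exon length, 52.6% overlaps another gene on the opposite strand, so its counts are uncertain if strand was not used.

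PPP1R3C, GYS1, GBE1 and PYGL are known to be induced by low oxygen, so 23 other genes of that response were set beside them. Of these, 21 were tested and none was called by edgeR or DESeq2, with a smallest adjusted p of 0.252 in edgeR. Since edgeR called 0.708% of all genes tested, nothing is read from the absence of calls here either. An unadjusted p under 0.05 was seen for 5 (23.8%, beside 9.68% of all genes tested), 2 higher and 3 lower. With the replicate number as a block, VEGFA was called, a gene that had -0.17 and an adjusted p of 0.290 in edgeR's test without the block. The median log2 fold change was -0.00055, with 10 above 0 and 11 below. The largest were 0.87 for ANKRD37 (standard error 0.260, adjusted p = 0.252), a gene of only 0.754 CPM with DMSO, and 0.47 for ADM (standard error 0.144, adjusted p = 0.262), which encodes adrenomedullin. Next came WSB1 with -0.21 (adjusted p = 0.424). All 3 adjusted p are from edgeR's test. Of the exon length of ANKRD37, 40.3% overlaps UFSP2 on the opposite strand, so its counts are uncertain if strand was not used.

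**Figure D4:**
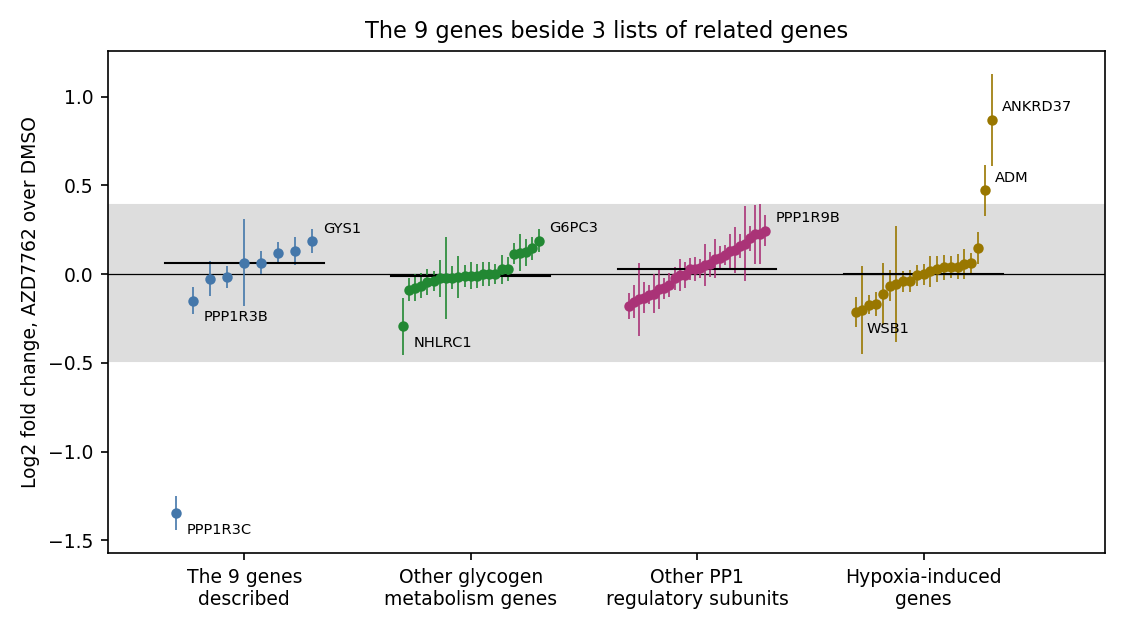
Log2 fold change of AZD7762 over DMSO for the 9 genes and 3 lists of related genes that were tested (23, 28 and 21 genes), sorted within each list, with standard errors as bars and list medians as black lines. The grey band holds 95% of all genes tested, from -0.49 to 0.39, and PPP1R3C at -1.35 stands alone below it.

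The genes whose pattern was most like that of PPP1R3C were sought among the 13870 genes whose mean log2 CPM was 1 or more. The measure was the root mean square distance between log2 CPM values, each centred on the gene's mean over the 6 samples. The 5 nearest were BHLHE41 (0.1999), RHOB (0.2046), MAFF (0.2337), DDIT3 (0.2619) and SPRY4 (0.2636), against a median distance of 0.698. BHLHE41, a transcriptional repressor of the circadian clock, had 6.36, 5.70 and 6.37 CPM with DMSO and 3.30, 2.99 and 2.67 with AZD7762. RHOB, a small GTPase, had 573, 498 and 627 CPM with DMSO and 208, 190 and 193 with AZD7762. MAFF and DDIT3 encode basic leucine zipper factors and SPRY4 an inhibitor of receptor tyrosine kinase signalling, and their log2 fold changes were -1.35, -0.999 and -0.94. None of the 5 is an enzyme or regulator of glycogen metabolism in the lists used here. Likeness over 6 samples of 2 groups favours genes that are lower with AZD7762, and within groups the genes differed, since PPP1R3C was lowest of the DMSO samples in replicate 3 and RHOB was highest there.

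**Figure D5:**
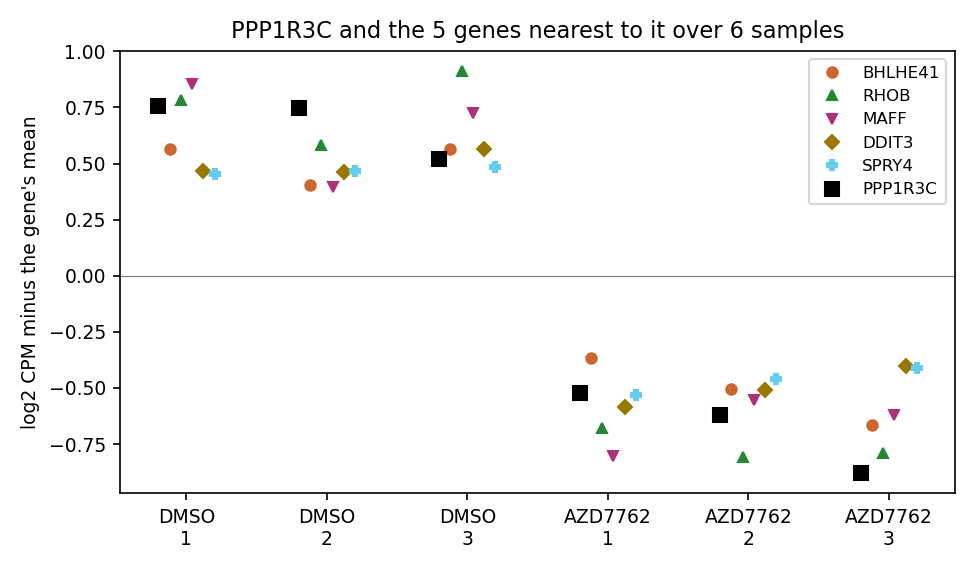
Log2 CPM minus the gene's mean over the 6 samples, for PPP1R3C (black squares) and the 5 genes nearest to it. All 6 genes are above 0 in the 3 DMSO samples and below 0 in the 3 AZD7762 samples, and PPP1R3C ranges from 0.758 to -0.879.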

How the data were processed

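RNA-seq was measured in 6 samples of EndoC-βH1 cells, grouped by treatment from their titles. The authors checked reads of 51 bases with FastQC (v0.10.1), trimmed them with cutadapt (v1.18), aligned to GRCh37 and obtained gene counts with HTSeq-count (v0.11.2). The deposited unit is raw counts, in 1 file for each sample. The aligner, annotation release and strand setting are not given in the sources used here. Libraries were prepared with a stranded or an unstranded kit, without a statement of which was used for which sample.

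Symbols, positions and exon lengths came from a GENCODE annotation lifted to GRCh37, which lists 58646 of the 60671 identifiers. Counts were filtered with filterByExpr, scaled with TMM and tested with edgeR 4.0.16 (quasi-likelihood, treatment as the only term, Benjamini-Hochberg over all genes) in R 4.3.3. All tests are two-sided. Normalized CPM are counts per 1000000 of the scaled library total. Standard errors were obtained from the F statistic and the log2 fold change. Log2 CPM used a prior count of 2. DESeq2 1.42.0, other scalings and filters, a replicate term and leaving out samples were alternatives. Genes named were the 9 listed, the 5 nearest to PPP1R3C, called genes and the 3 largest changes of each list, and the gene with the highest level per length in each role. The 9 genes and all lists were chosen with earlier results of these data known. A gene each of the glycogen and islet marker lists is not reported here. Procedures were tested on simulated counts. There edgeR's test recovered 60.6%, 80.6% and 97% of genes with an absolute log2 fold change of 0.6, 1 and 1.5, with 6 false calls. No change smaller than 0.6 was simulated, so these rates do not cover the small differences of most genes listed here. A gene that was not called can therefore still differ.

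Libraries held between 20486391 and 29402440 counts.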

Additional observations from a re-analysis of the deposited data

How the results depend on the processing

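Against 125 genes called over the whole table, 330 were called without a filter on low counts and 378 with a replicate block, and the cause was not tested. On counts simulated without pairs, the fit with the block made 14 false calls and the fit without it 6. When each sample was left out in turn, the lowest number was 77 (AZD7762 replicate 1 removed) and the highest 168 (DMSO replicate 3 removed). Between 116 and 175 genes were called with DESeq2, with other scalings or with a floor of 10 counts per sample. The log2 fold change of PPP1R3C, a description because this contrast chose the gene, lay between -1.38 and -1.35 outside the fits that left out a sample, and between -1.44 and -1.25 in those.

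The number of other glycogen genes called was 0 under each alternative. Among the hypoxia-induced genes it was 1 with the replicate block (VEGFA, named after its value was seen) and 0 in every other fit. For the other PP1 regulatory subunits it ranged from 0 to 1 when a sample was left out, PPP1R16A being called without DMSO replicate 3. The deviations of samples with the same replicate number had correlations across genes of 0.053, 0.12 and 0.21. Those of samples with different numbers lay between -0.25 and 0.17. The labels state no pairing and these values do not settle it, and the numbers were not taken as pairs. AZD7762 replicate 2 was closer to DMSO replicate 1 (0.17) than to DMSO replicate 2.

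With the longest transcript in place of all exons, levels per length were higher for 7 of the 9 genes, by over 1.5 times for GBE1 (from 9.48 to 14.99) and PYGL (from 0.292 to 0.474), with all 9 in the same order. The counts of PYGL limit what can be seen for that gene.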

Other observations

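Genes that control glycogen breakdown beside the phosphorylases were expressed in these cells. Phosphorylase kinase, which activates phosphorylase, was represented by PHKB (11.7 ± 0.508 CPM per kb of exon with DMSO, SD, n = 3), PHKA2 (8.89 ± 0.310), PHKA1 (6.61 ± 0.492) and PHKG2 (2.99 ± 0.131). Genes on the opposite strand overlap 18.6% of the exon length of PHKA2 and 20.9% of that of PHKG2. A gene on the same strand overlaps 7.84% of that of PHKG2, so the counts of both are less certain. The muscle catalytic subunit PHKG1 had at most 5 counts in a library. GAA, which degrades glycogen in lysosomes, had 26.6, 22.7 and 31.8 CPM per kb in the 3 DMSO samples. EPM2A and NHLRC1, which encode laforin and malin, stood at 0.740 ± 0.0347 and 2.10 ± 0.430. With the length of the longest transcript in place of all exons, EPM2A was at 1.95, PHKB at 25.6 and PHKA2 at 14.97, each over 1.5 times as high. None of the 7 genes tested among these was called between AZD7762 and DMSO in edgeR's test, at adjusted p values over all genes of at least 0.597. The share called among all genes tested was 0.708%, so nothing is read from this.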
